A study of Oryza sativa Indica Group with 64 samples.

Results

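The 8 libraries collected 14 h after dawn, 4 under high night temperature (HNT) and 4 under control, were compared gene by gene. They were chosen by their labels and are 8 of the 64 libraries of a field time course in leaves of the rice variety IR64, which was sampled at 8 time points with 4 replicates per treatment. The 14 h samples came after dusk, early in the heated night, and lay between the dusk and the 17 h samples. The study's methods describe the tissue as flag leaf. HNT plants were warmed at night by infrared heaters in the field, and the labels call this treatment warm night temperature. Both treatments shared the variety, the site in the Philippines and the dry season. Nothing in the labels says that the replicates were separate plants or plots, so the p-values measure only the spread between libraries. The main gene tests took this spread from all 64 libraries, fitted together. A difference between plots cannot be told apart from HNT.

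After dusk, a leaf stops fixing carbon and lives on the starch and sugars stored during the day. Many leaf transcripts rise and fall with the circadian clock and with light, so a gene's level early in the night is set against a moving daily course. Warm nights are known to raise respiration in rice leaves and to lower grain yield and quality. The gene identifiers of the counts, which begin with MH, are not paired with gene names in the files, and 0 of the 57174 identifiers were found in the gene table used. Genes were therefore grouped by level, by daily course and by response at other times, and no pathway, tissue marker or sequence could be assigned.

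Reads counted on genes ranged from 4489611 to 10535833 in the control libraries and from 4616534 to 20754863 in the HNT libraries, against 1714647 to 37248564 over all 64. Of the listed genes, 28717 were counted in at least 1 library of 14 h and 19384 in all 8. Of the 28717, 16 were counted in all 4 HNT libraries and in no control library, and 2 showed the reverse. Only in HNT libraries, whatever their number, 2232 genes were counted, against 1511 only in control libraries. The HNT libraries were deeper by their median, with 9240507 reads counted on genes against 6103220.5 in control. The part of depth in these gene counts was not tested. A floor of 3 counts corresponded to between 0.145 and 0.668 CPM, the count scaled to library size, and it covers counting error only.

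Control replicate 2 stood apart in its read classes. Only 37.8% of its reads were counted on genes, against 67.5% to 69.8% in the other control libraries and 65.8% to 73.1% in the HNT libraries. Reads aligned to several places made up 21.7% of this library, against 3.60% to 5.92% in the other controls and 3.45% to 5.11% under HNT. It also had the lowest number of detected genes (22114) and the fewest reads counted on genes (4489611) of the 8 libraries.

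The libraries did not separate by treatment along the main axes of their overall profiles. The first principal component of the 8 libraries held 47.6% of the variance, and the treatment held 10.7%. On this component, control replicates 1 to 4 stood at -92.9, -39.9, 55.5 and 65.8, and HNT replicates 1 to 4 at 54.1, -79.1, 6.84 and 29.7. Control replicate 1 and HNT replicate 2 thus lay side by side at the low end, and the treatments overlapped. They overlapped on the second component too (17.0% of the variance). On the third (10.8%), control replicates 1 to 4 stood at 29.4, 3.94, 55.0 and -6.05 and HNT replicates at -9.36, -17.8, -42.3 and -12.9, so that all HNT libraries lay below all control libraries, by a narrow margin next to control replicate 4. The correlation of log2 CPM between control replicate 1 and HNT replicate 2 was 0.972, the highest of the 16 pairs that crossed treatments (0.899 to 0.972). The 6 pairs within control gave 0.901 to 0.953, and the 6 pairs within HNT gave 0.920 to 0.979.

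**Figure D1:**
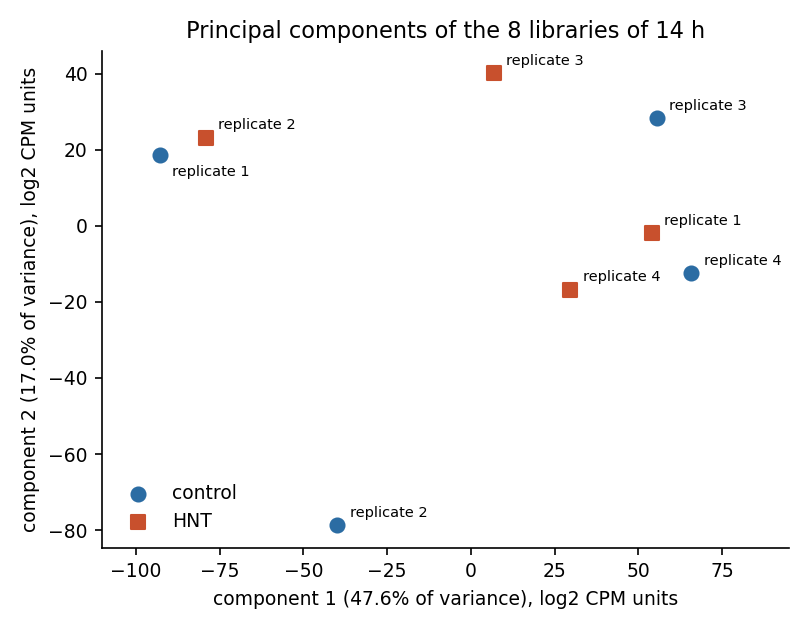
First and second principal components of log2 CPM in the 8 libraries of 14 h, with circles for control and squares for HNT (n = 4 each). Control replicate 1 (-92.9) and HNT replicate 2 (-79.1) sit together at the low end of component 1, and control replicate 2 lies alone at -78.7 on component 2.

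The replicates of 14 h also differed in how close they were to other times of day. Control replicate 1 and HNT replicate 2 each correlated better with the mean of the control libraries of 17 h (0.967 for both) than with the rest of their own group (0.942 and 0.947). HNT replicate 3 was closest to HNT at 17 h (0.973), nearly level with its own group (0.971). The other 5 libraries were closer to their own group than to any group of another time. Every control library correlated better with the mean of the 4 HNT libraries of 14 h (0.958 to 0.960) than with the mean of its own group's other 3 libraries (0.942 to 0.955), although a mean of 4 libraries is less noisy than one of 3. The common biological coefficient of variation, the spread between replicates beyond counting, was 0.412 in control and 0.310 under HNT. It fell to 0.345 without control replicate 1 and to 0.246 without HNT replicate 2. At the other 7 time points it ranged from 0.247 to 0.399 in control and from 0.216 to 0.415 under HNT.

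Few single genes passed the test early in the heated night. Of 20525 genes tested with edgeR's quasi-likelihood test, 1 had a Benjamini-Hochberg adjusted p under 0.05 (0.00487% of those tested), and it was higher under HNT. At an adjusted p under 0.1 there were 5 genes (0.0244%), all higher under HNT. At an unadjusted p under 0.05 there were 1138 genes (5.54%), with 573 higher (2.79%) and 565 lower (2.75%). For 642 genes (3.13%) the 4 HNT libraries did not overlap the 4 control libraries, with all HNT values above control for 344 genes (1.68%) and below for the rest (1.45%). The count of calls rested on single libraries, with 0 without control replicate 1 (1444 at an unadjusted p under 0.05) or without HNT replicate 2 (971), 4 without control replicate 2, 11 without control replicate 3 and 19 without control replicate 4.

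Most measured differences were small. The median log2 fold change over all tested genes was -0.016, the median absolute change was 0.20, and 90% of genes lay between -0.65 and 0.71. The median standard error was 0.29. Among 1728 genes at 100 CPM or more, the median absolute change was 0.16, and 5 genes had a log2 fold change above 1 and 20 below -1. Among 9788 genes at 10 to 100 CPM it was 0.15. In the 2202 genes under 1 CPM it was 0.52, with a median standard error of 0.80. The share of genes whose groups did not overlap was 2.36% under 1 CPM, 2.86% at 1 to 10 CPM, 3.37% at 10 to 100 CPM and 3.76% from 100 CPM upwards.

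The direction of the genes at an unadjusted p under 0.05 was also listed by level. Among genes under 10 CPM, those at an unadjusted p under 0.05 were more often higher under HNT, with 61 higher and 24 lower below 1 CPM, and 209 higher and 137 lower from 1 to 10 CPM. Above this level more were lower, with 260 higher and 333 lower from 10 to 100 CPM, and 43 higher and 71 lower from 100 CPM upwards. Scaled by library size only, 563 genes were higher and 351 lower over all levels.

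**Figure D2:**
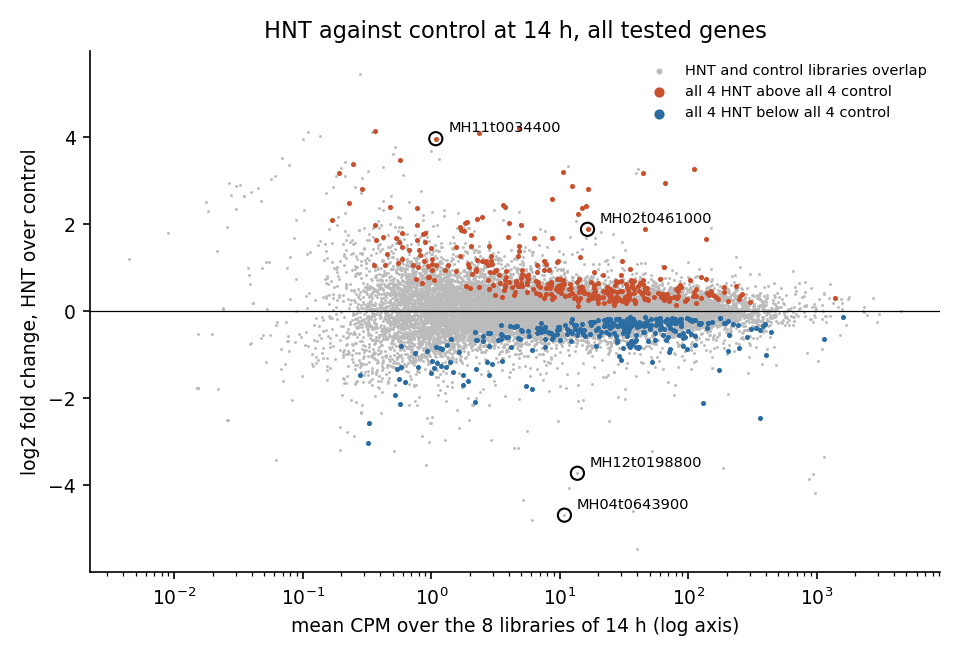
Log2 fold change of HNT over control at 14 h against mean CPM (log axis) for each of the 20525 tested genes. Red points are genes with all 4 HNT libraries above all 4 control libraries (344), blue points the reverse, and circles mark the 4 genes described by identifier, of which MH12t0198800 and MH04t0643900 overlap between groups.

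The gene that passed, MH11t0034400, was nearly absent from control leaves at 14 h and present in every HNT library. Its level was 0.174, 0.176, 0 and 0.121 CPM in control replicates 1 to 4, from 2, 1, 0 and 1 counts. Under HNT it was 1.66, 4.01, 1.54 and 0.994 CPM, from 22, 40, 9 and 28 counts. All 4 HNT libraries lay above all control libraries, and every control library was under the floor of 3 counts. The summed counts gave a ratio of 14.5, with a 95% interval of 5.50 to 54.4 that covers counting error only. The fitted log2 fold change, which depends on the prior count, was 3.97 (SE 0.73, n = 4 per group, edgeR adjusted p = 0.0280). The gene no longer passed without control replicate 1 (adjusted p = 0.0792), without HNT replicate 2 (0.0957) or with limma (0.617).

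The daily course of MH11t0034400 had its lowest control value at 14 h. Mean control levels were 0.923 CPM at dusk, 0.117 CPM at 14 h (SD 0.0823) and 1.34 CPM at 17 h. Under HNT the corresponding means were 2.14, 2.05 (SD 1.34) and 3.00 CPM, and the lowest HNT mean of the day was at 10 h. The log2 fold change was 1.21 at dusk, 1.12 at 17 h and 1.04 at 23 h, none of which passed (adjusted p of 0.341 or more). The difference between its effect at 14 h and its effect at dusk did not pass either (edgeR adjusted p = 1.00).

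MH02t0461000 had the smallest p among higher genes with a mean of at least 10 CPM. Its level was 4.25, 7.90, 5.05 and 11.0 CPM in the control libraries and 29.4, 25.0, 26.2 and 22.8 CPM under HNT. The groups did not overlap, and the lowest HNT library held more than double the CPM of the highest control library. The log2 fold change was 1.88 (SE 0.39, n = 4 per group), and the gene did not pass (edgeR adjusted p = 0.0669). Of 20 alternatives it passed in 2, with DESeq2 (adjusted p = 0.00214) and without control replicate 4 (edgeR adjusted p = 0.0264). It did not pass with limma (adjusted p = 0.581). With edgeR it did not pass when 14 h was fitted alone (0.526) or without HNT replicate 1 (0.259).

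In control leaves, MH02t0461000 was at 25.5 CPM at dusk, 7.05 CPM at 14 h (SD 3.05) and 21.9 CPM at 17 h, so that 14 h was the lowest of the 8 control means. Under HNT the means were 26.9, 25.8 (SD 2.76) and 44.2 CPM at the same times. Both courses were lowest at 14 h of these 3 times, and the step from dusk was larger in the control means. The control mean at dusk rested on replicate 3 at 58.0 CPM, and it was 14.7 CPM without it (11.0 to 20.6 CPM in the other 3). At dawn the gene stood at 85.8 CPM in control and 125.4 CPM under HNT, with overlapping libraries. Its effect at 14 h did not differ from that at dusk (adjusted p = 1.00) or from the mean of the other 7 time points (adjusted p = 0.539) past the threshold.

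Among genes lower under HNT, MH12t0198800 had the smallest p. MH04t0643900 had the next smallest among those with a mean of at least 10 CPM. Both rested on 1 library. MH04t0643900 reached that mean only through control replicate 2, so the rule that named it favours such a gene. The pair does not speak for the other lower genes. MH12t0198800 was at 6.94, 90.5, 2.22 and 2.53 CPM in control replicates 1 to 4 and at 0.981, 3.81, 1.03 and 1.77 CPM under HNT. The value of control replicate 2 was far above all others, and the other 3 control libraries overlapped HNT. The log2 fold change was -3.72 (SE 0.82, edgeR adjusted p = 0.119) and became -1.04 without control replicate 2 (adjusted p = 0.990). MH04t0643900 was at 2.34, 80.1, 1.23 and 0.121 CPM in control and at 0.679, 0.802, 0.855 and 0.852 CPM under HNT. Its log2 fold change was -4.68 (SE 1.08, edgeR adjusted p = 0.129) and became -0.66 without control replicate 2 (adjusted p = 1.00). Both passed in 3 alternatives, all of which kept control replicate 2. These were edgeR without control replicate 3 (adjusted p = 0.0458 for each), edgeR without control replicate 4 (0.0264 for each) and DESeq2 (0.00214 for each).

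**Figure D3:**
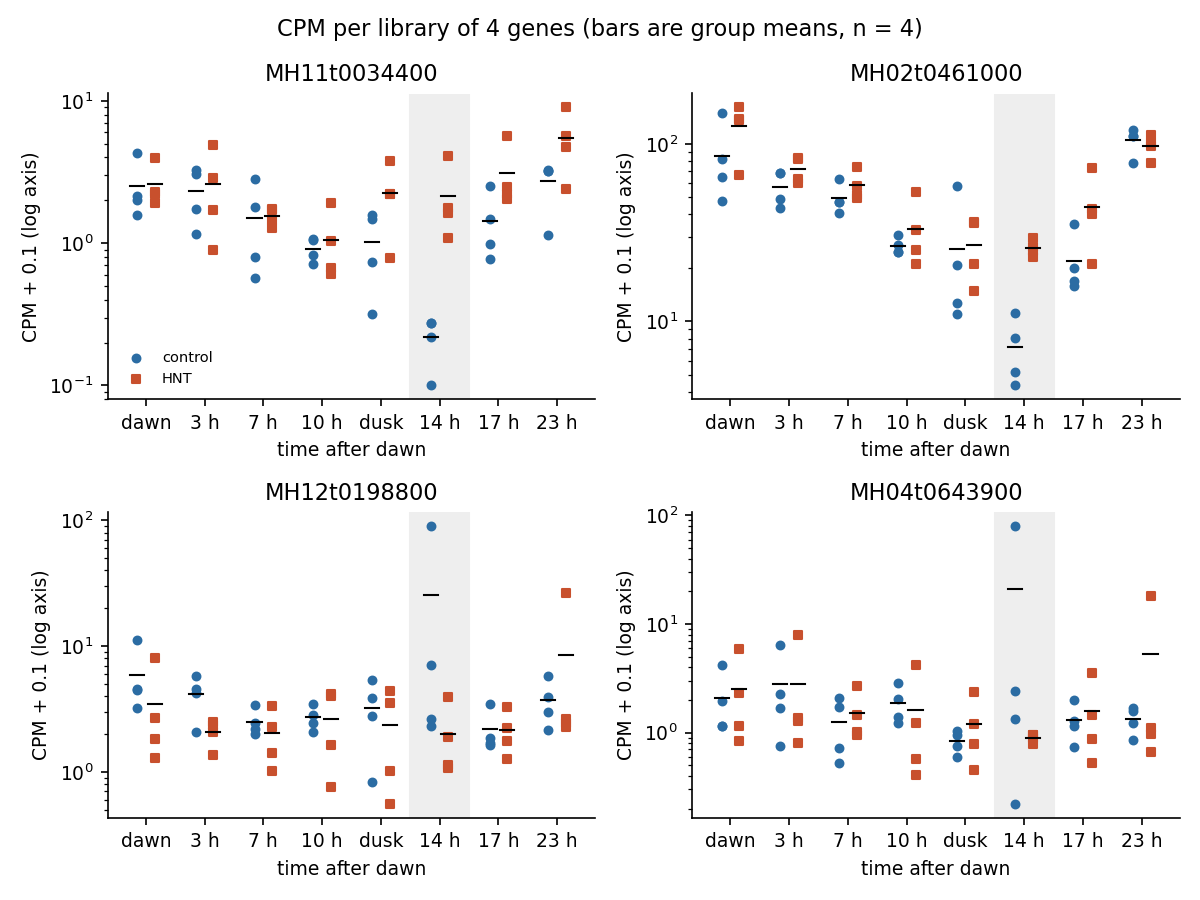
CPM (plus 0.1, log axis) of the 4 genes in every library over the 8 time points, with circles for control, squares for HNT, bars for group means (n = 4) and 14 h shaded. MH11t0034400 and MH02t0461000 show a low in control at 14 h (means 0.117 and 7.05 CPM) where HNT was at 2.05 and 25.8 CPM, and the lower pair of panels shows control replicate 2 at 90.5 and 80.1 CPM.

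A wider set was described at an unadjusted p under 0.001, which held 59 genes (0.287%), 29 higher (0.141%) and 30 lower (0.146%). These genes were chosen by their values at 14 h, so their changes there (median log2 fold change 2.03 and -2.48) are a description. For 27 of the 29 higher genes, 14 h was the lowest of the 8 control means, against 10.3% of all tested genes. Under HNT it was the lowest mean for 3 of the 29. For 21 of the 30 lower genes, 14 h was the highest of the control means, against 9.37% of all tested genes. The control values of 14 h took part in choosing both sets.

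The higher set was mostly higher under HNT at times that had no part in the choice, when 45.2% to 55.1% of all tested genes were higher. Its median log2 fold change was 0.57 at dawn (26 of 29 genes higher), 0.33 at 3 h (23), 0.71 at 7 h (27) and 0.54 at 10 h (25). It was 0.11 at dusk (21), 1.04 at 17 h (28) and 0.32 at 23 h (25). At 17 h the median was 0.89 without HNT replicate 3 of 17 h. The median of the set's mean effect at the other 7 time points was 0.59. When the set was chosen again without control replicate 1 it was 0.23, and it was 0.36 without control replicate 3 and 0.36 without control replicate 4. The 5 genes at an adjusted p under 0.1 were all higher on average at the other 7 time points, by 0.35 to 0.85 on the log2 scale, and 3 of them passed there.

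Apart from 23 h, more genes of the lower set were lower than higher under HNT at the other times. Of its 30 genes, 25 were lower both at 3 h and at dusk. There were 21 lower at 10 h and again at dawn, 20 at 17 h and 16 at 7 h. The median of the set's mean effect at the other 7 time points was -0.098 (21 genes lower). By time, its median log2 fold change lay between -0.37 and -0.11 from dawn to dusk and was -0.14 at 17 h. At 23 h it was 0.59, with 20 of 30 genes higher under HNT. HNT replicate 3 of 23 h had 59.8% of its reads counted on genes and 9.97% aligned to several places. The other HNT libraries of 23 h had 66.1% to 74.4% and 3.28% to 4.78%. In replicate 3, MH12t0198800 was at 26.5 CPM and MH04t0643900 at 18.1 CPM, against at most 2.52 and 1.01 CPM in those libraries. The part of this library in the 23 h median was not tested. Control replicate 2 of 14 h held over 50% of the control CPM for 15 of these 30 genes, against 1.90% of all tested genes. It was also the highest of all 64 libraries for 16 of them. These genes were chosen partly by its values, and the share over all tested genes was not computed. Without this library the median difference of mean log2 CPM went from -1.18 to -0.55 in the lower set, and from 2.01 to 1.92 in the higher set. Its large share of reads aligned to several places and these high values occurred in the same library, and their part in the result was not tested.

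The response at the other 7 time points gave a set of genes chosen without the effect at 14 h. The 14 h libraries still took part in the filter, the scaling and the estimate of spread of the shared model. The mean effect of the other 7 time points passed the edgeR test for 3692 genes (18% of those tested, Benjamini-Hochberg adjusted p under 0.05). Of these, 1978 were higher (9.64%) and 1714 lower (8.35%) under HNT. Of the 1978, 79.6% were also higher at 14 h, against 47.5% of all tested genes. Their median log2 fold change was 0.21 at 14 h and 0.39 at the other time points. Of the 1714, 79.7% were also lower at 14 h, against 52.4% of all tested genes. Their median was -0.15 at 14 h and -0.28 at the others. Both sets were chosen by their effect at the other time points, which can inflate the values there. The sizes at 14 h and at the other time points are therefore not compared.

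Of the 1978 genes, 224 were higher (11.3%) and 8 lower (0.40%) at an unadjusted p under 0.05 at 14 h. Of the 1714, 4 were higher (0.23%) and 160 lower (9.33%). Over all tested genes the shares were 2.79% and 2.75%. The groups did not overlap for 7.79% of the first set and 4.84% of the second, against 3.13% of all tested genes. A score, the mean log2 CPM of the higher set minus that of the lower set, was -0.281, 0.142, -0.138 and 0.277 in control replicates 1 to 4, with the control mean at 0. It was 0.366, 0.376, 0.540 and 0.478 in the HNT libraries. All HNT libraries lay above all control libraries, including HNT replicate 2, which resembled control replicate 1 in its overall profile. Leaving out each library of 14 h in turn, the median log2 fold change ranged from 0.17 to 0.27 in the higher set and from -0.19 to -0.086 in the lower set.

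**Figure D4:**
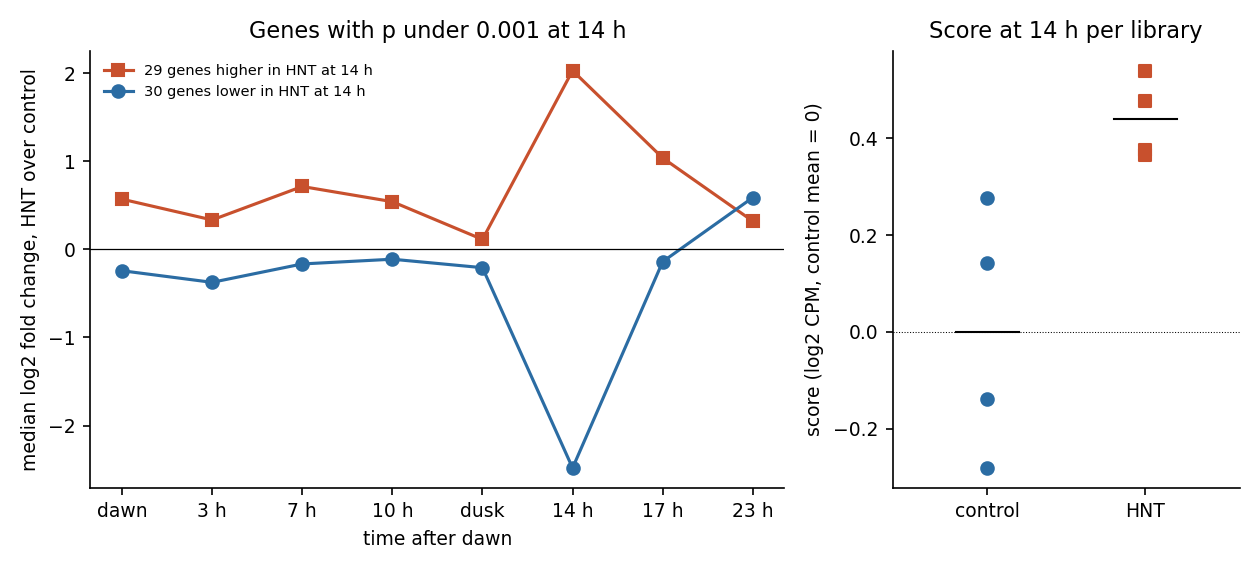
Left, median log2 fold change of HNT over control at each time point for the 29 higher and 30 lower genes chosen at 14 h, where the medians are 2.03 and -2.48 by choice. Right, score of each 14 h library from genes chosen at the other 7 time points (log2 CPM, control mean at 0, bars are group means), with HNT at 0.366 to 0.540 and control at -0.281 to 0.277.

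Across the 20525 genes, the effect at 14 h was weakly related to the effect at other times. Pearson's r was 0.278 with 10 h, 0.273 with 7 h, 0.223 with dusk, 0.181 with dawn, 0.135 with 17 h, 0.0914 with 23 h and 0.0898 with 3 h. Genes are not independent replicates, and these values describe the libraries. Leaving out each library of 14 h in turn, the value ranged from -0.067 to 0.29 for 23 h, from 0.017 to 0.29 for dawn, from 0.019 to 0.17 for 3 h and from 0.055 to 0.25 for 17 h. It ranged from 0.14 to 0.28 for dusk, from 0.16 to 0.31 for 7 h and from 0.20 to 0.30 for 10 h. Without a filter on low counts the value for 10 h was 0.068, so the order of the time points was not stable.

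Genes were also grouped by the time at which their control mean was highest among the 7 time points other than 14 h. The 1924 genes with their highest control mean at 14 h were thus placed by their next highest time. The 3271 genes that peaked at 23 h had a median log2 fold change of 0.041 at 14 h, with 173 higher (5.29%) and 58 lower (1.77%) at an unadjusted p under 0.05, against 2.79% and 2.75% of all tested genes. The 2972 genes that peaked at dawn had a median of -0.054, with 92 higher (3.10%) and 136 lower (4.58%). The medians of the other groups by peak time from 3 h to 17 h lay between -0.046 and 0.015. With library size only as the scaling, the medians were 0.12 for genes peaking at 23 h and 0.010 for those peaking at dawn, so the direction of the latter turned. The medians of the groups peaking from 3 h to 17 h changed sign when single libraries of 14 h were left out.

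How far each library had moved into the night was measured on the change of control leaves from dusk to 17 h. This used 649 genes that rose and 1025 that fell, each by more than 1 on the log2 scale and past the edgeR test, from the 3263 genes (15.9%) that passed. Control libraries of 14 h stood at 0.455, 0.568, 0.628 and 0.560 of the way, and HNT libraries at 0.668, 0.555, 0.569 and 0.687. The means were 0.553 (SD 0.0717) and 0.620 (SD 0.0674), and the groups overlapped. The difference of 0.0672 did not pass an exact two-sided permutation test (p = 0.229, where 0.0286 is the smallest the design allows).

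The genes of this axis leaned the same way at 14 h. Of the 649 rising genes, 64.7% were higher under HNT, against 47.5% of all tested genes, with a median log2 fold change of 0.15. At an unadjusted p under 0.05, 29 were higher (4.47%) and 5 lower (0.77%), against 2.79% and 2.75% of all tested genes. Of the 1025 falling genes, 59.2% were lower, against 52.4% of all tested genes, with a median of -0.079, and 15 were higher (1.46%) and 51 lower (4.98%). On the same axis the mean HNT position was 0.149 at dusk, where control was set to 0, and 0.818 at 17 h, where control was set to 1. The control libraries of dusk and 17 h also chose the axis genes, so control lies at both ends partly by choice. These HNT positions are therefore a description. The 17 h value included HNT replicate 3 of 17 h at 0.347, outside the range of the other libraries of that time. The other HNT libraries of 17 h stood at 0.930 to 1.02.

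**Figure D5:**
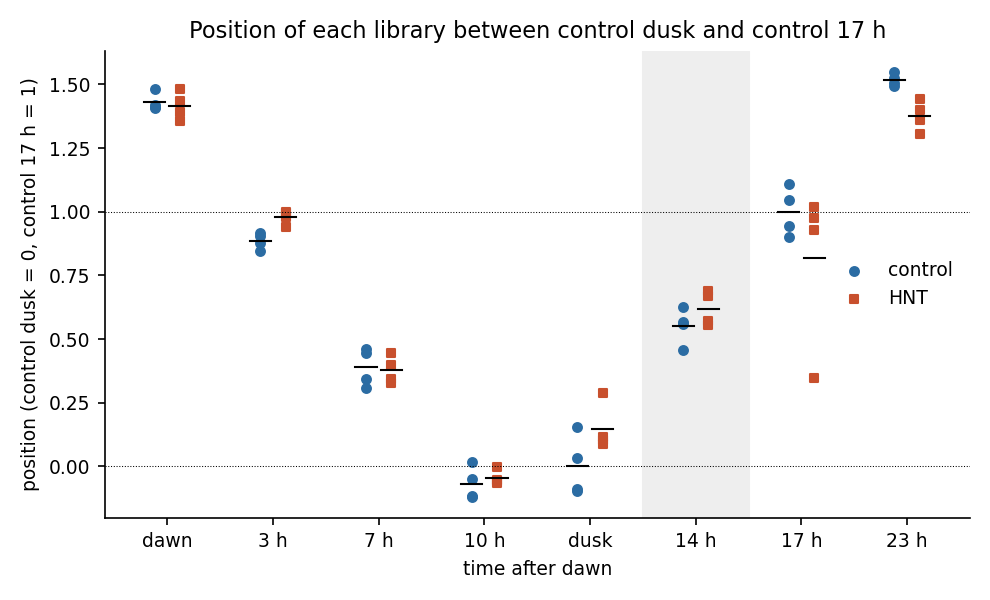
Position of every library between control at dusk (0) and control at 17 h (1) over the 8 time points, with circles for control, squares for HNT and bars for group means (n = 4). At 14 h, shaded, control libraries sit at 0.455 to 0.628 and HNT libraries at 0.555 to 0.687, and HNT replicate 3 of 17 h lies low at 0.347.

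The effect of HNT at 14 h was compared with that at the neighbouring time points in the same edgeR model. No gene passed the test of a difference in effect between 14 h and dusk (0 of 20525 at an adjusted p under 0.05, with 485, or 2.36%, at an unadjusted p under 0.05). DESeq2 and limma also gave 0, with 543 and 717 genes at an unadjusted p under 0.05. Against 17 h the effect differed for 8 genes (0.039%), all with a lower value at 14 h. Their log2 fold changes were -2.53 to -0.22 at 14 h and 2.72 to 7.64 at 17 h. HNT replicate 3 was the highest HNT library of 17 h for all 8, and without it 0 genes passed, with 342 at an unadjusted p under 0.05. Leaving out 1 library of 14 h gave 0 genes without HNT replicate 4, 8 without control replicate 2 and 2 to 5 without any other. Against the mean of the other 7 time points, edgeR gave 0 genes with 735 (3.58%) at an unadjusted p under 0.05, DESeq2 gave 6 (870) and limma gave 0 (962).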

How the data were processed

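Leaf poly(A) RNA was sequenced from directional libraries, and the labels gave treatment, time point and replicate. The files deposited by the authors hold raw read counts for 57174 genes per library. The submitters' processing notes name HISAT2 (version 2) and HTSeq 0.6.0. The genome build and annotation are not given in the sources used here, nor is the use of strand in counting, so overlapping, antisense and near-identical genes are uncertain. The 5 closing lines of uncounted reads were left out of the tests and used only to describe the libraries. The reads counted on genes at 14 h ranged from 37.8% to 73.1% of a library's total.

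All 64 libraries were fitted together in edgeR 4.0.16 (R 4.3.3), with a mean for each of the 16 groups, filterByExpr (count minimum 10, total 15), TMM scaling (factors 1.09 to 1.36 at 14 h), glmQLFit with robust estimation and glmQLFTest. P-values were adjusted over all 20525 genes by the Benjamini-Hochberg method. CPM used the TMM factors, and log2 CPM a prior count of 2. No replicate pair differed by less than sampling noise. Named by rule were, in each direction, the gene with the smallest p and the one with the smallest p at a mean of at least 10 CPM, or the next such gene where both were the same. The members, lists and rules were chosen with earlier results of these data known.

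Alternatives were RLE or library size scaling, other filters, DESeq2 1.42.0, limma 3.58.1 (voom with quality weights), a fit of 14 h alone, the replicate block and leaving out each library of 14 h. A surrogate variable (sva 3.50.0), the joint omission of control replicate 1 and HNT replicate 2, and the omission of HNT replicate 3 of 17 h were added after seeing the data. The test was tested on simulated data for the 14 h comparison. Plots were drawn with matplotlib 3.10.9.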

Additional observations from a re-analysis of the deposited data

Results flagged for a closer look

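Control replicate 2 of 14 h lay far from the other 3 control libraries in 3 of 9 measures of the library, where chance flags about 1 in 20 groups. The share of its reads counted on genes was 37.8% (67.5% to 69.8% in the others), the share aligned to several places was 21.7% (3.60% to 5.92%), and 22114 genes were detected (23033 to 23193). These measures are not independent. The shares have the same total, and this library also had the fewest counts on genes. It also lay apart in a pair of genes, which were named for their low p and so partly for this library, and add nothing to that count. Its level of MH12t0198800 was 90.5 CPM (2.22 to 6.94 CPM in the others), and its level of MH04t0643900 was 80.1 CPM (0.121 to 2.34 CPM).

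The effect of HNT differed between 14 h and 17 h for 8 genes by edgeR's test of the difference, and for 0 genes without HNT replicate 3 of 17 h.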

How the results depend on the processing

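The count of 1 gene called at 14 h became 5 at an adjusted p under 0.1, 38 with DESeq2 (19 higher, 19 lower) and 2 with the replicate block within each time point, neither of them MH11t0034400 (adjusted p = 0.0763). It became 0 with the additive replicate block (MH11t0034400 at adjusted p = 0.0526). Without control replicate 1 and HNT replicate 2 together it was 0 (845 genes at an unadjusted p under 0.05). It was also 0 with 14 h fitted alone, alone with the replicate block (469) or alone with a surrogate variable. The filter left MH11t0034400 out of the fits of 14 h alone, so this gene was not tested there. Leaving out 1 library gave 0 to 19. RLE, library size and both filters gave MH11t0034400 alone. With limma this gene was lost (log2 fold change 3.11, adjusted p = 0.617) and a different gene, lower under HNT, was called. The 8 genes that differed from 17 h became 5 without a filter, 5 with the additive replicate block, 0 with the block within time points, 23 with DESeq2, 0 with limma, 0 without HNT replicate 3 of 17 h, and 0 to 8 leaving out 1 library. Against the mean of the other 7 time points, DESeq2 gave 6 genes, all lower, and the others run gave 0. The difference from dusk was 0 throughout. The position difference stayed between 0.031 and 0.094 (exact permutation p of 0.171 or more). The cause of these changes was not tested. Same-numbered libraries of the 2 treatments deviated together with correlations of -0.615, 0.260, 0.0813 and 0.268, so the numbers were not taken as pairs, and control replicate 1 and HNT replicate 2 gave 0.722. Depth limits genes near the floor of 0.145 to 0.668 CPM.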
